A study of Arabidopsis thaliana with 8 samples.

Results

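The effect of lincomycin on wild-type Arabidopsis thaliana seedlings was described here beyond photosynthesis genes, over transporters, redox proteins, RNA processing, protein turnover and growth regulators. It was read from 4 RNA-seq libraries, 2 from seedlings on Murashige and Skoog (MS) medium and 2 from seedlings on MS medium with lincomycin at 50 µg/ml, among 8 libraries in the whole study. Genes entered when they had at least 10 normalized counts in at least 2 of the 4 wild-type libraries, which 19444 of 36917 loci did. A normalized count is a read count divided by the size factor of its library, as the authors deposited it.

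The study grew the Col-0 wild type and irx3-2, a mutant of a cellulose synthase subunit of the secondary wall, with and without lincomycin, in 2 libraries per group. All seedlings were 5 days old and were grown at 22 °C on agar with 1% sucrose, in constant light at 100 µmol photons per square metre and second. Total RNA was taken with Trizol and made into Illumina TruSeq libraries. Whether both libraries of a group stem from plants grown apart is not in the labels, so p-values measure only the spread between these libraries, which may be technical.

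Lincomycin blocks the plastid ribosome and leaves the cytosolic and mitochondrial ribosomes working. Seedlings that cannot make plastid-encoded proteins stay pale, live on the sugar in the medium, and send signals from the plastid to the nucleus that lower the transcription of many nuclear genes for plastid proteins. Plastids are also the site of fatty acid synthesis, of much amino acid and sulfur metabolism and of light-driven reduction of thioredoxins, small proteins that switch enzymes on by reducing disulfide bonds. Alternative oxidases, efflux carriers and inhibitors of cyclin-dependent kinases are known in this plant as genes induced when organelles or the genome are damaged.

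Of the 19444 genes tested, 5928 were called at an adjusted p below 0.05, which is 30.5% of them. The test was limma over all 8 libraries, with p-values adjusted by Benjamini-Hochberg over all genes. Higher levels on lincomycin were found for 2445 genes (12.6%) and lower levels for 3483 (17.9%). A called change of at least 2-fold upward was found for 889 genes (4.57%) and downward for 2085 (10.7%). The pairs of libraries did not overlap for 13181 genes (67.8%), so 2 pairs that do not overlap mean little alone, and each gene named as risen or fallen below passed the test. All 198 genes chosen by the naming rule had the same sign in the authors' deposited table. That table rests on the same libraries, so this is no independent check. Of the 5928 calls 4947 (83.5%) were also called there at an adjusted p below 0.05.

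The libraries held 15990205 and 18467091 counted reads on MS and 17682533 and 16584658 on lincomycin. Plastid-encoded genes took 54.1% and 55.0% of reads on MS and 20.4% and 19.6% on lincomycin. Reads of nuclear genes other than ribosomal RNA were fewer on MS, at 7220395 and 7681603, than on lincomycin, at 13751593 and 13028448, and low levels are less precise on MS. The deposited size factors put the median log2 difference of all tested genes at 0.03, and scaling each library to its nuclear reads put it at 0.49, so a rise or a fall below is a change relative to the size factors. With the nuclear scaling 8420 genes were higher and 2058 lower, or 80.4% of calls higher against 41.2%. Without lincomycin replicate 1 the calls numbered 3346, and without lincomycin replicate 3 they numbered 3382. In whole seedlings fewer cells of a type and less RNA per cell cannot be told apart.

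Below, a pair of values is given as MS replicates 2 and 3 and then lincomycin replicates 1 and 3, in normalized counts. A log2 difference is lincomycin minus MS on the scale of log2 of the normalized count plus 1, with its standard error, and a fold is a ratio of group means. Where a group had no read, the fold is a lower bound against a floor of 3 reads over the group. Where a group had 1 to 3 reads, the log2 difference depends on the pseudocount, and levels are given in its place. Levels are not per length, so they are compared between libraries and not between genes.

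**Figure D1:**
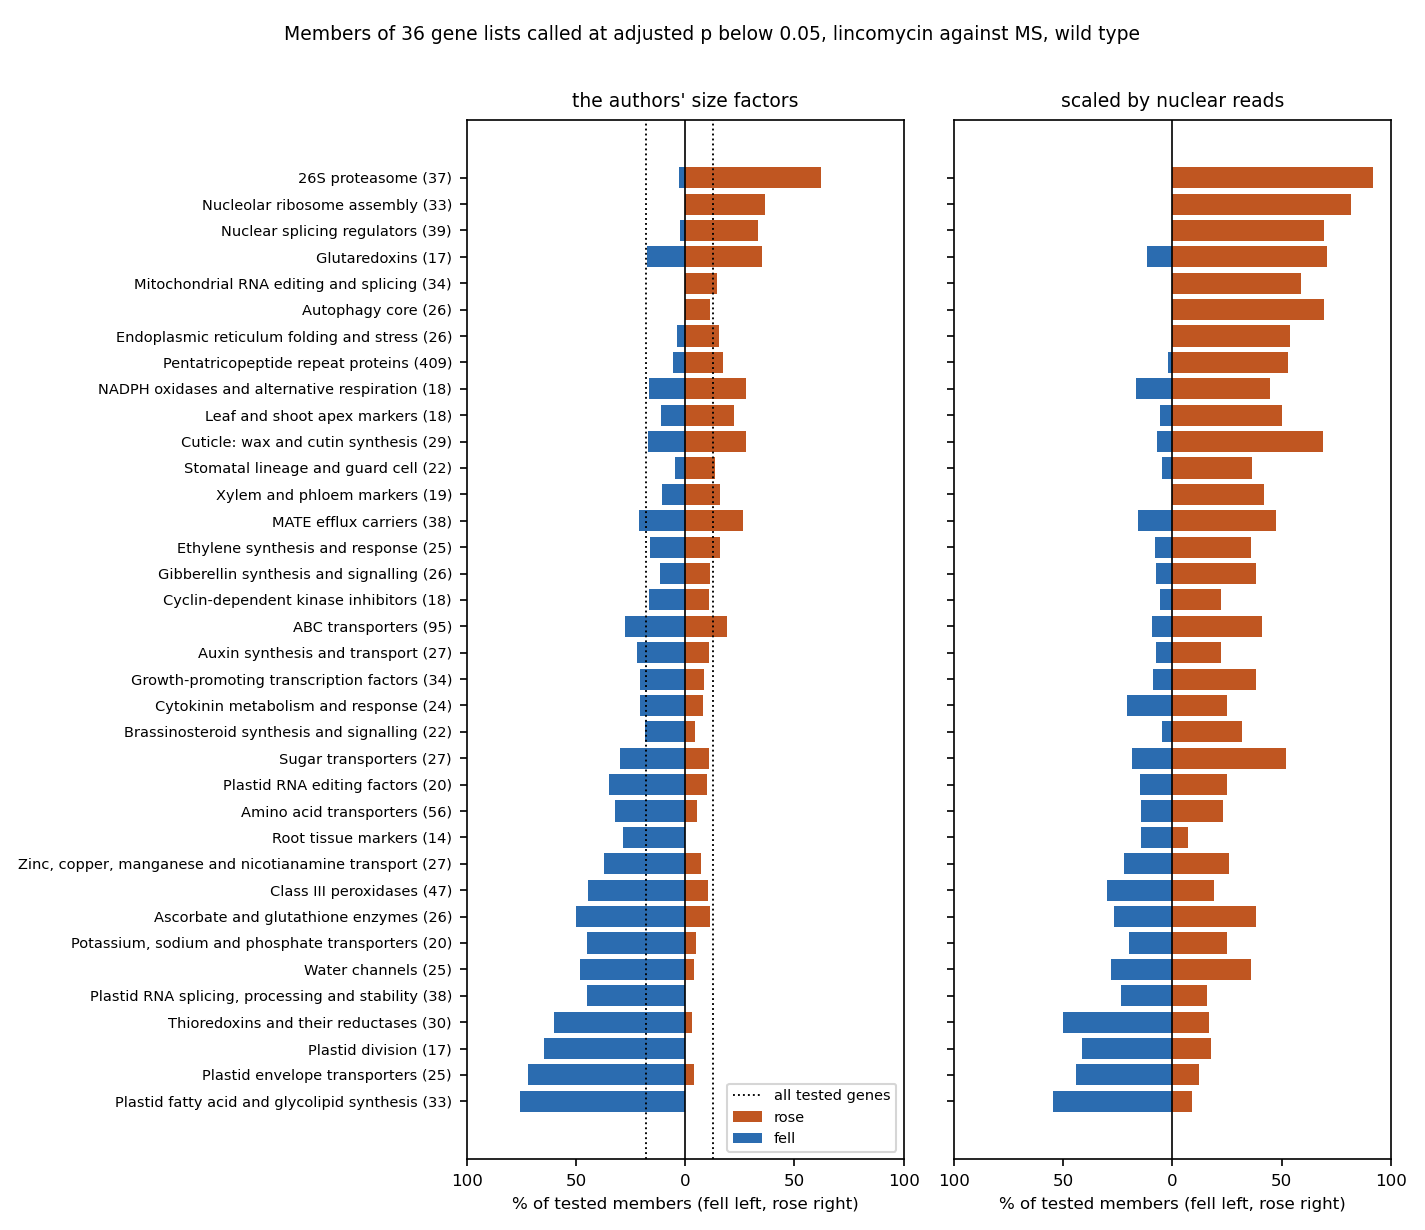
Share of tested members (percent, x axis) that rose or fell on lincomycin in each of 36 gene lists. Panels show the authors' size factors and scaling to nuclear reads. Dotted lines, in the size-factor panel only, mark the shares of all tested genes (12.6% and 17.9%). Under the nuclear scaling 8420 of 19444 tested genes rose and 2058 fell. Plastid lipid synthesis (25 of 33), envelope transporters (18 of 25), plastid division (11 of 17) and thioredoxins (18 of 30) had the largest shares that fell and kept more falls than rises under both scalings, whereas amino acid, water, sugar, ion and metal transporters fell more often than they rose only under the size factors.

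The plot of rises and falls by list showed, under both scalings, more falls than rises for the plastid lipid, envelope, plastid division and thioredoxin lists and more rises than falls for the proteasome, nucleolar and splicing lists. A total of 36 lists with 1607 genes was described. Each list is given by its count of called members and its median. These are to be read against 12.6% higher, 17.9% lower and a median of 0.03 for all tested genes. Under the nuclear scaling 8420 of 19444 tested genes were higher and 2058 lower, with a median of 0.49. Counts under that scaling are to be read against these values, since more rises than falls is there the order of all genes.

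The 10 largest rises among called nuclear protein-coding genes, taken with a mean of at least 100 normalized counts on lincomycin, included carriers, ATPases, a transcription factor and proteins of unknown function. AT2G18193, which codes for an ATPase of the AAA family, had 9.19 and 18.9 normalized counts on MS and 1715 and 1739.6 on lincomycin (log2 6.92 ± 0.46, adjusted p = 1.13e-06), a 123-fold rise. AT2G04050, a carrier of the multidrug and toxic compound extrusion (MATE) family, had 0 and 8.73 on MS and 558 and 538 on lincomycin (log2 7.46 ± 0.85). AT2G04050 passed the filter only through the lincomycin libraries and so had to differ. Both genes were low in every MS library and high in every lincomycin library.

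Of these 10 genes 7 were at 0 in both MS libraries. They passed the filter only through the lincomycin libraries and so had to differ, and their levels are given without p-values. AT1G30170 had 468 and 421 on lincomycin, at least 199-fold higher, and AT5G53230 had 267 and 253, at least 116-fold higher. AT5G53240 had 106 and 136, at least 54.0-fold higher. These 3 genes and AT5G55270, with 0 and 1.45 on MS and 188 and 189 on lincomycin, belong to the DUF295 family, plant proteins that share a domain of unknown function. AT4G05380 (364 and 321), AT3G54520 (285 and 251) and AT5G59390 (125 and 124) were also read on lincomycin only. The remaining gene, NAC036, a transcription factor of the NAC family, differed between the genotypes and is described with them.

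Promoters were read because NAC factors known in this plant from mitochondrial dysfunction bind a short element, called here the mitochondrial dysfunction motif, that precedes many genes of alternative respiration. Within 250 bases before the gene start, on either strand, the motif was present for 0.919% of 18603 tested genes, for 2.1% of those that rose, for 4.28% of those at least 2-fold higher (35 of 817) and for 0.760% of those at least 2-fold lower. It preceded 6 of the 10 genes with the largest rises and 0 of the 10 with the largest falls. A match is a description of the letters and not of binding. The promoters below, chosen after the values were seen, show where it lies before a mitochondrial stress gene and before the 6 strongest risers that hold it. They are 250 bases upstream of each gene start, in the direction of the gene, from the RefSeq sequence of TAIR10.1 (the submitters' processing notes name TAIR10), with the motif in capitals:
AT2G21640: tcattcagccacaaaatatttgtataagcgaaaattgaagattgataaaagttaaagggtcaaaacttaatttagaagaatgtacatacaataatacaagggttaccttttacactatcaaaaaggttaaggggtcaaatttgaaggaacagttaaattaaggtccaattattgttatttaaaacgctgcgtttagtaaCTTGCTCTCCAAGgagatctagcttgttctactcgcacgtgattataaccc
AT2G04050: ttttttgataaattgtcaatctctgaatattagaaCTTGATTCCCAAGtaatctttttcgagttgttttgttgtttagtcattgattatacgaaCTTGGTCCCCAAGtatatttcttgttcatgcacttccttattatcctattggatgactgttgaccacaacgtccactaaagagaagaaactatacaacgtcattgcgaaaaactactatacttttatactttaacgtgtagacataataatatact
AT2G18193: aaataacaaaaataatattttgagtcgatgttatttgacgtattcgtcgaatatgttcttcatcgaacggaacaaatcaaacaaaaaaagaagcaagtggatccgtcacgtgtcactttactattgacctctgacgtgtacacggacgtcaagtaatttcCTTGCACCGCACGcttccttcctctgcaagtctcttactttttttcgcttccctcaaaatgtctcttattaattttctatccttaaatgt
AT5G53230: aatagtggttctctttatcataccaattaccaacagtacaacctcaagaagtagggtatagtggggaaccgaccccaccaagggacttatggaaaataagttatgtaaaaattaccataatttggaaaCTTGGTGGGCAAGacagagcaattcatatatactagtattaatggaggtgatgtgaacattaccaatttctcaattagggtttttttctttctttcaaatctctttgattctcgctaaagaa
AT5G53240: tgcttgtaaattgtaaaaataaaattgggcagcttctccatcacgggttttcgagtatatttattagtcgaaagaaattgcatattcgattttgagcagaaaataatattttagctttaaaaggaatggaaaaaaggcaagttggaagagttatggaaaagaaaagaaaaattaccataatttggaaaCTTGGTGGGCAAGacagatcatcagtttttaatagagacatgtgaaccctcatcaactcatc
AT5G55270: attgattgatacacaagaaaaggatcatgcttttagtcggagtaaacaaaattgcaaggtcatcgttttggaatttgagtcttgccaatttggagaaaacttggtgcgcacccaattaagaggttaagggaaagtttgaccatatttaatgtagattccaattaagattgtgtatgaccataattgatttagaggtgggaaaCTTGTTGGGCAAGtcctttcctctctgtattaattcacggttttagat
AT5G59390: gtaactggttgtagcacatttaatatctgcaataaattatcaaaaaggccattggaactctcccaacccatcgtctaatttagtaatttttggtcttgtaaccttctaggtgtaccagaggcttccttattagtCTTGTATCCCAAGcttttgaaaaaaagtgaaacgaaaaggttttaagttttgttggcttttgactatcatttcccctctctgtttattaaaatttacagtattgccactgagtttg

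These windows lie at chr2:9254128-9254377 (plus strand) for AT2G21640, chr2:1339469-1339718 (minus) for AT2G04050 and chr2:7919346-7919595 (minus) for AT2G18193. For AT5G53230, AT5G53240, AT5G55270 and AT5G59390 they lie at chr5:21598598-21598847, chr5:21601231-21601480, chr5:22418897-22419146 and chr5:23954076-23954325, all on the plus strand. The motif began 51 bases upstream of AT2G21640, at 215 and 156 bases upstream of AT2G04050, and at 90, 122, 62, 48 and 116 bases upstream of the others in the order printed. AT5G53230 and AT5G53240 are neighbours and carry the same 13 letters.

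Efflux carriers held the largest rises among transporters. ABC transporters move lipids, hormones and glutathione conjugates with energy from ATP, and of 95 tested of 126 members 18 rose and 26 fell (median log2 −0.09), although with the nuclear scaling 39 rose and 9 fell. Without lincomycin replicate 1 there were 9 rises and 16 falls, and without lincomycin replicate 3 there were 9 and 13. Without MS replicate 2 there were 11 rises. ABCC3, a vacuolar pump for glutathione conjugates and chlorophyll catabolites, had 852 and 979 on MS and 6428 and 6048 on lincomycin (log2 2.77 ± 0.11, adjusted p = 2.88e-08). Both lincomycin libraries lay far above both MS libraries, a 6.81-fold rise. ABCC9 had 58.2 and 78.6 on MS and 429 and 468 on lincomycin (log2 2.71 ± 0.27). ABCG40, an importer of abscisic acid, rose less, from 26 and 27.6 to 60.0 and 62.7 (log2 1.16 ± 0.32), with adjusted p = 0.0556, 0.0983 and 0.114 without MS replicate 2, lincomycin replicate 1 and lincomycin replicate 3. ABCG6, which is needed for suberin, had 545 and 375 on MS and 119 and 72.5 on lincomycin (log2 −2.27 ± 0.28), and ABCG22, needed for normal stomatal closure, had 875 and 866 and then 360.1 and 345 (log2 −1.30 ± 0.11).

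MATE carriers exchange organic cations, flavonoids or organic acids for protons, and of 38 tested of 53 members 10 rose and 8 fell (median log2 0.05), with 18 and 6 under the nuclear scaling. The falls numbered 5 without MS replicate 2, without lincomycin replicate 1 or without lincomycin replicate 3. AT2G04050 lies in a tandem run of MATE genes on chromosome 2, from 1334270 to 1379130 in TAIR10.1. In that run DTX1, a carrier of toxic compounds out of the cell, had 59.7 and 29.1 on MS and 285 and 252 on lincomycin (log2 2.65 ± 0.34), and AT2G04100 had 62.8 and 48.0 and then 123 and 102 (log2 1.02 ± 0.25), with adjusted p = 0.0510 and 0.109 without MS replicate 3 and lincomycin replicate 1. Its other members were not called. AT2G04080 had 59.7 and 50.9 on MS and 101 and 65.2 on lincomycin, and AT2G04090 had 30.6 and 18.9 and then 8.24 and 2.46. How reads that fit several copies were counted is not stated, so the split within the run is uncertain. Elsewhere AT3G03620 had 0 and 5.82 on MS and 75.9 and 76.8 on lincomycin, 26.2-fold higher. It passed the filter only through the lincomycin libraries and so had to differ. AT5G52450 had 225 and 212 and then 11.2 and 20.3, 13.9-fold lower (adjusted p = 3.53e-05).

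**Figure D2:**
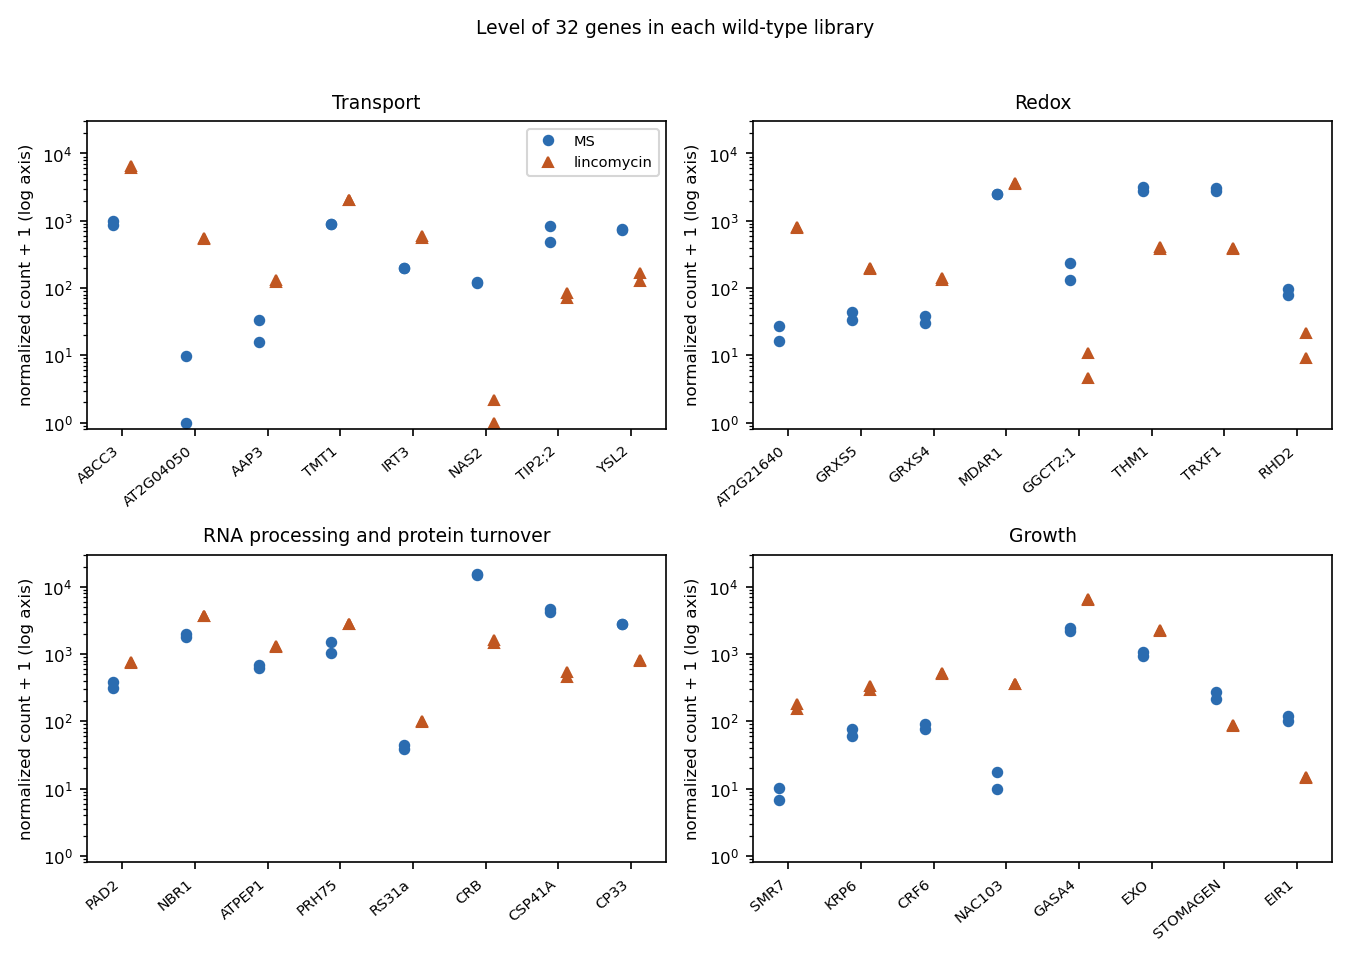
Normalized counts plus 1 (log axis) of 32 genes in the 2 MS and 2 lincomycin libraries of the wild type, each point 1 library, in panels for transport, redox, RNA processing with protein turnover, and growth. For ABCC3 the lincomycin points are at 6048 and 6428 and the MS points at 852 and 979, and for CRB (CSP41B) the order is the opposite, with 1443 and 1618 on lincomycin and 15099.8 and 15756 on MS.

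Sugar and amino acid carriers moved in both directions. Of 27 tested sugar transporters of 46 members 3 rose and 8 fell (median log2 0.13), with 14 and 5 under the nuclear scaling, and the falls numbered 5 without MS replicate 2 or without lincomycin replicate 1. TMT1, which loads sugar into the vacuole, had 896 and 892 on MS and 2069 and 2040.2 on lincomycin (log2 1.20 ± 0.09, adjusted p = 2.84e-06). The groups did not overlap and each pair of libraries was close. SWEET2, a vacuolar sugar channel, fell from 470.3 and 489 to 190.1 and 153 (log2 −1.49 ± 0.16), and SUC1, a sucrose and proton carrier of the plasma membrane, fell from 1514 and 1194 to 673 and 803 (log2 −0.87 ± 0.13). SUC5 had 44.4 and 49.5 on MS and 1.18 and 6.76 on lincomycin. It passed the filter only through the MS libraries and so had to differ. Of 56 tested amino acid transporters of 72 members 3 rose and 18 fell (median log2 −0.37), but with the nuclear scaling 13 rose and 8 fell. The falls numbered 11 without MS replicate 2 and 10 without lincomycin replicate 3, and the rises 6 without either irx3-2 MS library. AAP3, a permease of the vasculature, rose from 32.2 and 14.5 to 131 and 122 (log2 2.49 ± 0.35), and AAP1, an importer of neutral amino acids, rose from 267 and 445 to 913 and 889 (log2 1.38 ± 0.27). UMAMIT14, an exporter of amino acids, fell from 73.5 and 37.8 to 8.83 and 6.15 (log2 −2.68 ± 0.44). This gene passed the filter only through the MS libraries and so had to differ.

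Water channels, potassium, sodium and phosphate carriers and carriers of metals were lower more often than higher under the size factors. Under the nuclear scaling each of these lists had more rises than falls, as all tested genes did (8420 higher and 2058 lower). Relative to the median of all tested genes, the list medians were −0.34 for water channels, −0.52 for potassium, sodium and phosphate carriers, and −0.50 for metals. These log2 differences were the same under both scalings. The nuclear scaling multiplies each library by 1 constant and so shifts all genes nearly alike. That equality was therefore fixed in advance and is no check on the falls. Of 25 tested water channels of 31 members 1 rose and 12 fell (median log2 −0.31), with 9 and 7 under the nuclear scaling. TIP2;2, a channel of the vacuolar membrane, had 821 and 483 on MS and 71.2 and 83.0 on lincomycin (log2 −3.02 ± 0.32, adjusted p = 4.18e-05). GAMMA-TIP, another vacuolar channel, had 4558 and 4152 and then 2085 and 2103 (log2 −1.05 ± 0.15). DELTA-TIP fell less, from 9558 and 8907 to 5963 and 5617 (log2 −0.67 ± 0.12), and under the nuclear scaling it was not called (log2 −0.21, adjusted p = 0.138). NIP7;1 was the member that rose, at 0 in both MS libraries and 15.9 and 17.8 on lincomycin. It passed the filter only through the lincomycin libraries and so had to differ. Its call was lost without lincomycin replicate 1 or 3.

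Of 20 tested potassium, sodium and phosphate transporters 1 rose and 9 fell (median log2 −0.49), with 5 and 4 under the nuclear scaling, and the falls numbered 5 without MS replicate 2, lincomycin replicate 1 or lincomycin replicate 3. The rise was lost without MS replicate 3 or either lincomycin library. PHT1;1, a phosphate importer of the root surface, had 395 and 249 on MS and 61.2 and 66.4 on lincomycin (log2 −2.28 ± 0.30). PHO1;H1, which loads phosphate into the xylem, had 588 and 393 and then 83.6 and 98.4 (log2 −2.39 ± 0.26). Of 27 tested genes of zinc, copper, manganese and nicotianamine transport 2 rose and 10 fell (median log2 −0.47), with 7 and 6 under the nuclear scaling, and the falls numbered 6 without MS replicate 2 or lincomycin replicate 3. The rises numbered 1 without MS replicate 2 or either lincomycin library. NAS2, an enzyme that makes the metal chelator nicotianamine, had 121 and 118 on MS and 1.18 and 0 on lincomycin. COPT2, a copper importer, had 153 and 90.2 and then 3.53 and 3.69 (log2 −4.69 ± 0.69). NAS2 and COPT2 passed the filter only through the MS libraries and so had to differ. IRT3, a zinc and iron importer, rose from 201 and 199 to 545 and 597 (log2 1.51 ± 0.18, adjusted p = 8.76e-05).

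Markers of root cells were read beside these transporters. Of 14 tested root tissue markers of 20 members 0 rose and 4 fell (median log2 −0.83), with 1 and 2 under the nuclear scaling, and 2 fell without MS replicate 2, MS replicate 3 or lincomycin replicate 1. Their summed level was 1084.7 and 817.6 normalized counts on MS and 657.9 and 649.1 on lincomycin. EXPA7, an expansin of root hairs, had 81.2 and 56.7 on MS and 8.24 and 2.46 on lincomycin (log2 −3.61 ± 0.60). It passed the filter only through the MS libraries and so had to differ. The marker CASP1 fell as well, and its call was lost in 6 of 18 alternatives, among them the nuclear scaling (log2 −1.54, adjusted p = 0.0532). RHD2, the NADPH oxidase of root hair tips, was counted with the NADPH oxidases. It had 96.5 and 78.6 on MS and 8.24 and 20.3 on lincomycin (log2 −2.65 ± 0.49). SCR, a regulator of the endodermis, had 286 and 255 and then 181 and 203, and its call was lost in 10 of 18 alternatives, among them the nuclear scaling (log2 −0.03, adjusted p = 0.891). Its adjusted p was also above the threshold, up to 0.232, without any 1 of the 4 wild-type or 2 irx3-2 lincomycin libraries. The part of root cell number in the falls of water, phosphate and metal transporters was not tested.

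Of 30 tested thioredoxins and thioredoxin reductases of 32 members 18 fell and 1 rose (median log2 −0.94), with 15 and 5 under the nuclear scaling. The genes that fell code for plastid thioredoxins or for the plastid reductases that serve them, apart from the cytosolic h-type thioredoxins TRX3 (log2 −0.58 ± 0.09) and TRX5 (log2 −1.0 ± 0.29). Under the nuclear scaling neither was called, at log2 −0.12 (adjusted p = 0.310) and −0.54 (adjusted p = 0.142), and TRX5 had adjusted p = 0.151 and 0.204 without MS replicate 2 and lincomycin replicate 1. THM1, the m1 type that acts on Calvin cycle and electron transport enzymes, had 3188 and 2801 on MS and 379.5 and 412 on lincomycin (log2 −2.91 ± 0.13, adjusted p = 5.34e-08), and TRXF1, the f1 type, had 3035 and 2757 and then 380.1 and 398 (log2 −2.89 ± 0.12). FTRA2, a subunit of the ferredoxin-dependent reductase that reduces them, fell from 768 and 849.6 to 157 and 138 (log2 −2.45 ± 0.17). NTRC, a reductase and thioredoxin in 1 protein that uses NADPH, fell less, from 2283 and 2224 to 737 and 639.9 (log2 −1.71 ± 0.10). The lincomycin libraries of each of these genes lay far below both MS libraries. NRX1, a nuclear redoxin whose gene is covered to 12.5% by another gene, had 322 and 343 and then 498 and 483 (log2 0.56 ± 0.14, adjusted p = 0.0120). Its adjusted p was 0.0614, 0.0904 and 0.0695 without MS replicate 2, lincomycin replicate 1 and lincomycin replicate 3.

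Of 17 tested glutaredoxins of 19 members, which reduce disulfides with glutathione, 6 rose and 3 fell (median log2 0.54), with 12 and 2 under the nuclear scaling, and 2 rose without lincomycin replicate 1. The 5 neighbours of the plant-specific CC type on chromosome 4, between 8925571 and 8938124 in TAIR10.1, made up all but 1 of the rises. GRXS5 had 42.9 and 32 on MS and 195 and 188 on lincomycin (log2 2.34 ± 0.29, adjusted p = 1.29e-04), and GRXS4 had 36.8 and 29.1 and then 139 and 129 (log2 2.00 ± 0.32, adjusted p = 8.73e-04). GRXS3 had 30.6 and 32 and then 152 and 119, GRXS7 had 15.3 and 20.4 and then 80.6 and 66.4, and GRXS8 had 24.5 and 20.4 and then 64.7 and 61.5. The lincomycin libraries lay above the MS libraries for each of them. Without lincomycin replicate 1 the calls of GRXS5 and GRXS4 were kept and the adjusted p was 0.0687 for GRXS3, 0.0619 for GRXS7, 0.191 for GRXS8 and 0.126 for GRXC11, the member outside the run. GRXS8 was also lost without MS replicate 2, MS replicate 3 or lincomycin replicate 3 (adjusted p = 0.0856, 0.128 and 0.167). GRXC11 was lost without any 1 of the other wild-type or the irx3-2 lincomycin libraries as well, with adjusted p up to 0.192. These genes are near copies of each other and the handling of reads that fit several copies is not stated, so their separate levels are uncertain. The 3 genes that fell, CXIP1 (log2 −1.65 ± 0.13), GrxC5 (log2 −1.66 ± 0.18) and CXIP2 (log2 −0.91 ± 0.17), code for plastid glutaredoxins, of which CXIP1 carries iron-sulfur clusters. Under the nuclear scaling CXIP2 was not called (log2 −0.44, adjusted p = 0.0510).

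**Figure D3:**
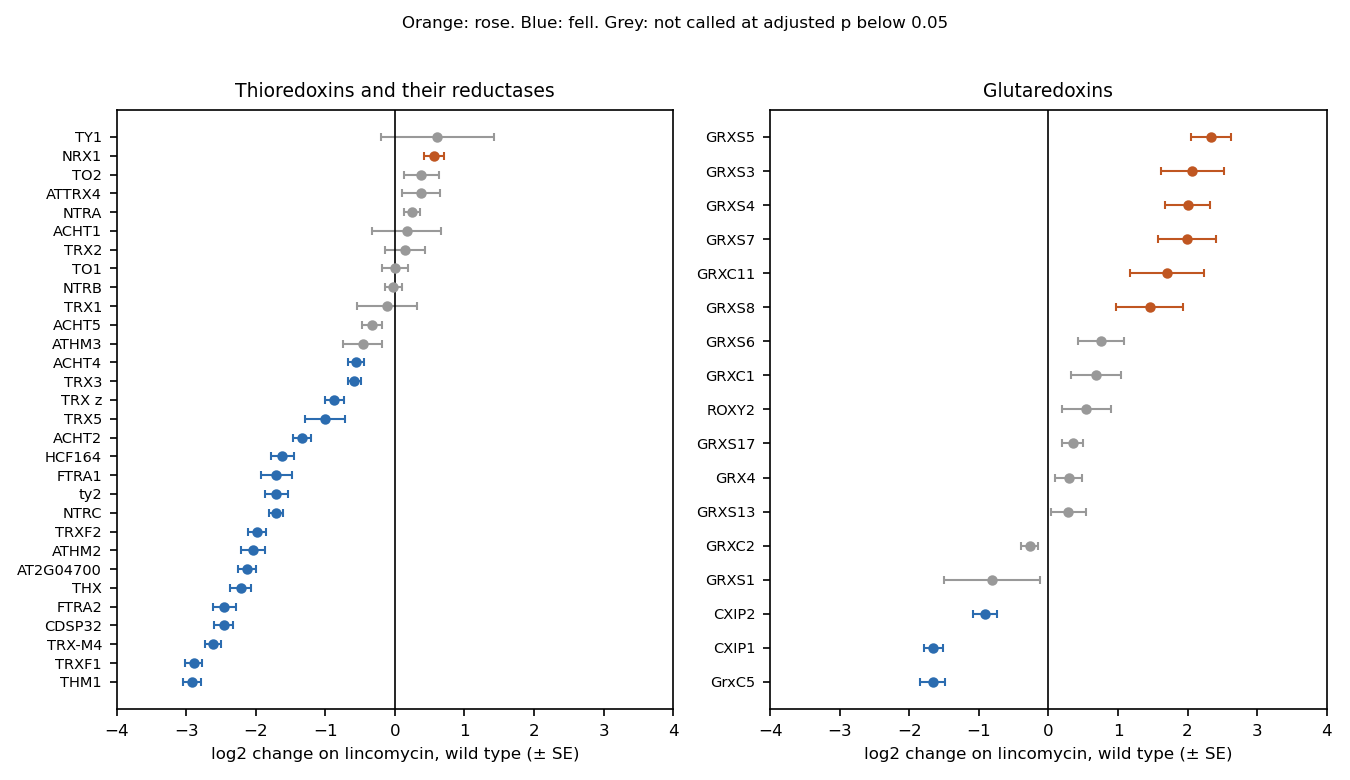
Log2 difference, lincomycin minus MS in the wild type, with its standard error, for 30 tested thioredoxins and their reductases and 17 tested glutaredoxins under the authors' size factors. Thioredoxins lay mostly below 0, down to −2.91 for THM1, and the CC-type glutaredoxins of chromosome 4 lay between 1.46 and 2.34; with the nuclear scaling 15 thioredoxins still fell and 12 glutaredoxins rose.

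Among 26 tested ascorbate and glutathione enzymes 3 rose and 13 fell (median log2 −0.26), but with the nuclear scaling 10 rose and 7 fell, and 8 fell without lincomycin replicate 3. The rises numbered 1 without either lincomycin library. VTC2, which makes the committed step of ascorbate synthesis, had 4224 and 3951 on MS and 2047 and 1777 on lincomycin (log2 −1.10 ± 0.10, adjusted p = 1.28e-05). VTC4, a later step of the same route, had 516 and 452 and then 213 and 218 (log2 −1.16 ± 0.13). GGCT2;1, which breaks down glutathione, is known to be induced by sulfur shortage. It fell from 237 and 132 to 3.53 and 9.84 (log2 −4.67 ± 0.49). GGCT2;1 passed the filter only through the MS libraries and so had to differ. MDAR1, a reductase that returns oxidised ascorbate to its reduced form, rose from 2534 and 2495 to 3547 and 3649.6 (log2 0.52 ± 0.10, adjusted p = 0.00265).

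Class III peroxidases, secreted enzymes that use hydrogen peroxide in the wall, fell in 21 of 47 tested of 68 members and rose in 5 (median log2 −1.06), with 14 and 9 under the nuclear scaling. The rises numbered 3 without MS replicate 3 or lincomycin replicate 1 and 2 without lincomycin replicate 3. AT3G01190 had 70.5 and 42.2 on MS and 0 in both lincomycin libraries, at least 62.5-fold lower. AT2G38390 had 199 and 156 and then 8.24 and 7.38 (log2 −4.33 ± 0.42). Both genes passed the filter only through the MS libraries and so had to differ. Many members of this family are known as root genes, and 4 of the 14 tested root markers fell. Their part in the falls of peroxidases was not tested.

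Of 18 tested NADPH oxidases and alternative respiration genes 5 rose and 3 fell (median log2 −0.11), with 8 and 3 under the nuclear scaling, and 2 rose without MS replicate 2, lincomycin replicate 1 or lincomycin replicate 3. AT2G21640, a marker of mitochondrial stress whose promoter is printed above, had 15.3 and 26.2 on MS and 778 and 809 on lincomycin (log2 5.24 ± 0.26, adjusted p = 1.21e-07), a 38.2-fold rise. AOX1A, an oxidase that passes electrons from ubiquinol to oxygen, had 268 and 228 and then 724 and 705 (log2 1.53 ± 0.12, adjusted p = 5.31e-06). In both genes the lincomycin libraries agreed closely and stood apart from both MS libraries. The external dehydrogenase NDB4 and the oxidase AOX1C had 39.4 and 45.5, and 61.8 and 49.2, on lincomycin, with adjusted p of up to 0.198 and 0.134 when 1 library was left out, the highest without lincomycin replicate 3 and 1. RBOHD, an NADPH oxidase of the plasma membrane, fell from 786 and 784 to 331 and 411 (log2 −1.09 ± 0.13), and NDA1, an internal dehydrogenase of mitochondria that is known to follow light, fell from 532 and 474 to 220.1 and 218 (log2 −1.19 ± 0.14). The mitochondrial dysfunction motif was present for 4 of the 18 promoters (22.2%). Of its called carriers AT2G21640 and NDB3 rose and NDA1 fell, while the window of AOX1A does not hold these letters. The rise of NDB3 (log2 1.52 ± 0.41) was lost without MS replicate 2, lincomycin replicate 1 or lincomycin replicate 3 (adjusted p = 0.0807, 0.102 and 0.0973).

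RNA processing genes are given by the place where their proteins work. Of 38 genes of plastid RNA splicing, processing and stability, all tested, 17 fell and 0 rose (median log2 −0.42), with 9 and 6 under the nuclear scaling. CRB, also known as CSP41B, a plastid RNA-binding protein that stabilises ribosomal and messenger RNA, had 15099.8 and 15756 on MS and 1618 and 1443 on lincomycin (log2 −3.33 ± 0.10, adjusted p = 2.61e-09). Its partner CSP41A, covered to 20.4% by another gene, had 4667 and 4157 and then 538 and 460.4 (log2 −3.14 ± 0.13). The ribonucleoproteins CP33 (log2 −1.80 ± 0.10) and AT2G37220 (log2 −1.66 ± 0.10) fell as well. The MS and lincomycin libraries of these 4 genes were far apart, with small differences within each pair.

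Of 20 plastid RNA editing factors 7 fell and 2 rose (median log2 −0.17), with 3 and 5 under the nuclear scaling. CRR4 and DYW1, which act together on the ndhD start codon, had 96.5 and 75.7 and then 24.7 and 20.9 (log2 −1.87 ± 0.37), and 241 and 255 and then 107 and 79.9 (log2 −1.41 ± 0.20). MORF9, a general plastid editing factor, fell from 1351 and 1091 to 628 and 519 (log2 −1.09 ± 0.17). The 2 genes that rose, ECB2 and RIP1, had adjusted p above the threshold without lincomycin replicate 1 (0.0624 and 0.0779) or 3 (0.0762 and 0.0725), and RIP1 also without MS replicate 3 (0.0742).

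Of 409 tested pentatricopeptide repeat proteins of 452 members, which bind organelle RNA one by one and sit in plastids or mitochondria, 70 rose and 23 fell (median log2 0.51), with 216 and 9 under the nuclear scaling. Their summed level was 56341 and 63636 normalized counts on MS and 60495 and 58143 on lincomycin, so the sums of the groups overlapped. The count of rises moved between 12 without lincomycin replicate 1 and 109 without irx3-2 MS replicate 2, with 18 without lincomycin replicate 3, 40 without MS replicate 2, 106 without irx3-2 MS replicate 1, and 41 and 42 without irx3-2 lincomycin replicates 2 and 3. The falls numbered 14 without lincomycin replicate 3. AT2G15630 had 18.4 and 14.5 on MS and 75.3 and 68.2 on lincomycin (log2 2.07 ± 0.36, adjusted p = 0.00145), and AT5G62370 had 16.9 and 46.6 and then 119 and 111 (log2 1.99 ± 0.40). Of 34 tested genes of mitochondrial RNA editing and splicing 5 rose and 0 fell (median log2 0.38), with 20 and 0 under the nuclear scaling. The rises numbered from 1 without lincomycin replicate 1 to 10 without either irx3-2 MS library, with 2 without lincomycin replicate 3 and 3 without MS replicate 2 or either irx3-2 lincomycin library. MTSF1, which stabilises a mitochondrial nad4 transcript and is covered to 13.3% by another gene, had 59.7 and 91.7 on MS and 198 and 175 on lincomycin (log2 1.32 ± 0.24, adjusted p = 0.00200).

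**Figure D4:**
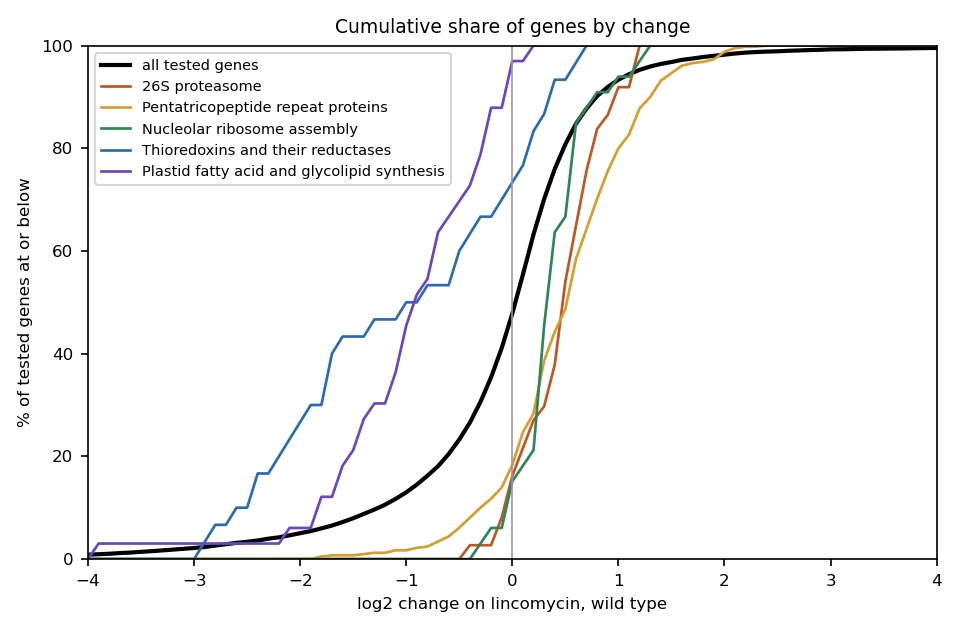
Cumulative percentage of genes (y axis) at or below a log2 difference, lincomycin minus MS in the wild type (x axis), for all 19444 tested genes and for the proteasome, pentatricopeptide repeat, nucleolar, thioredoxin and plastid lipid lists under the authors' size factors. The medians are 0.03 for all genes, 0.48 for the proteasome, 0.51 for pentatricopeptide repeat proteins (whose summed levels overlapped between the groups), 0.33 for nucleolar genes, −0.94 for thioredoxins and −0.96 for plastid lipid synthesis; under the nuclear scaling the median of all genes is 0.49.

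In the nucleus, 13 of 39 splicing regulators rose and 1 fell (median log2 0.17), with 27 and 0 under the nuclear scaling, and the rises numbered 8 without MS replicate 2, 3 without lincomycin replicate 1 and 5 without lincomycin replicate 3. RSZ21, a serine- and arginine-rich splicing factor, had 188 and 201 on MS and 330.1 and 338 on lincomycin (log2 0.78 ± 0.14, adjusted p = 0.00170). RS31a, which is covered to 23.9% by another gene, had 42.9 and 37.8 and then 101 and 97.1 (log2 1.28 ± 0.26). SC35, the member that fell, had 368 and 396 and then 297 and 294, and its call was lost in 13 of 18 alternatives.

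Nucleolar genes of ribosome assembly rose in 12 of 33 and fell in 0 (median log2 0.33), with 27 and 0 under the nuclear scaling, and 2 rose without lincomycin replicate 1 and 7 without lincomycin replicate 3. ATPEP1, also called BOP1 after the yeast and mammalian protein of large subunit assembly, had 692 and 623 on MS and 1333 and 1268 on lincomycin (log2 0.98 ± 0.14, adjusted p = 2.99e-04). NRPA2, the second subunit of RNA polymerase I, had 637 and 599 and then 986 and 1035 (log2 0.71 ± 0.11, adjusted p = 6.51e-04). Both pairs stood apart. PRH75, a nucleolar RNA helicase, had 1037 and 1528 and then 2814 and 2789 (log2 1.15 ± 0.26), with an adjusted p of 0.0614 without MS replicate 2, 0.0534 without lincomycin replicate 1 and 0.0507 without lincomycin replicate 3.

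The 26S proteasome, which degrades proteins tagged with ubiquitin, had the largest share of rises among the 36 lists, 23 of 37, with 1 fall (median log2 0.48). With the nuclear scaling 34 rose and 0 fell, and without lincomycin replicate 1 the rises numbered 14. PAD2, a subunit of the catalytic core, had 386 and 316 on MS and 768 and 747 on lincomycin (log2 1.12 ± 0.13, adjusted p = 6.60e-05). PAE1, another core subunit, had 406 and 358 and then 749 and 706 (log2 0.93 ± 0.13). The rises were of similar size, and 2 of the 23 reached 2-fold. RPN8A, a subunit of the regulatory lid, had 819.6 and 748 and then 569.6 and 583 (log2 −0.44 ± 0.11), with an adjusted p of 0.0853, 0.0972 and 0.0759 without MS replicate 2, lincomycin replicate 1 and lincomycin replicate 3, and a log2 difference of 0.023 in place of −0.44 under the nuclear scaling. In autophagy 3 of 26 genes rose and 0 fell (median log2 0.20), with 18 and 0 under the nuclear scaling and 7 rises without either irx3-2 MS library. NBR1, a receptor that brings ubiquitin-tagged cargo to autophagy, rose from 1989 and 1799.7 to 3732 and 3619 (log2 0.96 ± 0.09, adjusted p = 1.80e-05).

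The site II element, TGGGCC on either strand, is known from promoters of ribosomal protein and other growth-related genes in this plant. It was present in the 250 bases before 17.0% of tested genes, 40.5% of proteasome genes (15 of 37), 48.5% of nucleolar genes (16 of 33) and 46.2% of nuclear splicing regulators (18 of 39). It was also present for 41.2% of plastid division genes and 40% of plastid editing factors, lists that did not rise under the size factors, and for 17.5% of all genes that rose and 14.7% of those that fell. The telo-box, AAACCCTA on either strand, was present for 18.2% of nucleolar genes and 3.54% of tested genes. The promoters of PAD2 (chr5:26438772-26439021, minus strand, elements beginning 125 and 94 bases upstream) and ATPEP1 (chr2:16856772-16857021, minus strand, 65 bases upstream) are shown, from the same TAIR10.1 sequence, as examples with the element in capitals:
PAD2: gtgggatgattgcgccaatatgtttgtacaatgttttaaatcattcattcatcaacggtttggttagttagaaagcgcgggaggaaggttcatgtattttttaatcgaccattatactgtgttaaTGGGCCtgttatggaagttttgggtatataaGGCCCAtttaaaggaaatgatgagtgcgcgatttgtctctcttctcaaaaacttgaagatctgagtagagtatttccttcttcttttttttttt
ATPEP1: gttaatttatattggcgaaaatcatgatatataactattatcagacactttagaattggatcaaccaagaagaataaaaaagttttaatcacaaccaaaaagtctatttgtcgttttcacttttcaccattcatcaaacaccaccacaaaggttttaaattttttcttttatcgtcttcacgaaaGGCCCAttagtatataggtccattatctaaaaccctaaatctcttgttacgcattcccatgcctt

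In the endoplasmic reticulum list 4 of 26 tested genes rose and 1 fell (median log2 0.04), with 14 and 0 under the nuclear scaling and 2 rises without lincomycin replicate 1 or 3. The fall was lost without MS replicate 2 or any 1 of the 4 lincomycin libraries. NAC103, a transcription factor of the unfolded protein response that is also known as a target of the DNA damage regulator SOG1, had 16.9 and 8.73 on MS and 355 and 353 on lincomycin (log2 4.75 ± 0.30, adjusted p = 8.86e-07), a 27.7-fold rise. BZIP60, a factor that turns on folding genes after its messenger RNA is spliced in the cytosol, had 282 and 336 and then 583 and 708 (log2 1.06 ± 0.17). The chaperone BIP1 had 2044 and 2349.6 and then 3011 and 2984 (log2 0.45 ± 0.14, adjusted p = 0.0329), with adjusted p of 0.178, 0.154 and 0.141 without MS replicate 2, lincomycin replicate 1 and lincomycin replicate 3. NAC103 thus moved much more than BIP1.

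Growth genes are given by pathway. Among 18 tested inhibitors of cyclin-dependent kinases, which slow or stop the cell cycle, 2 rose and 3 fell (median log2 −0.19), with 4 and 1 under the nuclear scaling, and 0 fell without MS replicate 3, lincomycin replicate 1 or lincomycin replicate 3. Without either irx3-2 lincomycin library 1 fell. SMR7 is known as a target of SOG1 after DNA damage and oxidative stress. It had 9.19 and 5.82 on MS and 151 and 179 on lincomycin (log2 4.31 ± 0.39). SMR7 passed the filter only through the lincomycin libraries and so had to differ. KRP6, an inhibitor of another family, had 59.7 and 77.1 and then 296 and 335 (log2 2.2 ± 0.21, adjusted p = 1.91e-05). Both genes were low in every MS library and high in every lincomycin library. SMR3 had 36.8 and 43.6 and then 12.4 and 12.3, and KRP4, covered to 27.4% by another gene, had 394 and 457 and then 290.1 and 325. SMR3 had adjusted p of up to 0.0847 when 1 library was left out, the highest without lincomycin replicate 1, and KRP4 up to 0.205 there, with a log2 difference of −0.001 under the nuclear scaling.

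The element bound by SOG1 is written CTT, 7 bases of any kind, then AAG. It was present for 8.85% of tested genes and 12.1% of those at least 2-fold higher. The mitochondrial dysfunction motif can hold the same letters, and apart from such matches the shares were 8.36% and 9.55%. With all matches counted, the element was present for 16.7% of the inhibitors (3 of 18) and for more in other lists, such as 41.2% of glutaredoxins. The window of NAC103, the other SOG1 target named here, does not hold it. The promoter of SMR7 (chr3:10231568-10231817, minus strand, TAIR10.1) is shown because its rise was the largest of the cell cycle inhibitors here. The element, in capitals, begins 43 bases upstream:
SMR7: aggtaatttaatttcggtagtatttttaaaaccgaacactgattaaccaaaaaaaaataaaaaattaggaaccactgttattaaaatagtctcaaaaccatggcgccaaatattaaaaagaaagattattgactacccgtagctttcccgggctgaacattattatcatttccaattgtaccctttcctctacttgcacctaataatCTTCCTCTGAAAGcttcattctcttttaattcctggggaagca

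Cytokinin genes were described through 24 tested of 32 members, of which 2 rose and 5 fell (median log2 −0.08), with 6 and 5 under the nuclear scaling. The rises numbered 4 without lincomycin replicate 1 and 1 without lincomycin replicate 3. CRF6, a cytokinin response factor known to act under oxidative stress, had 88.9 and 75.7 on MS and 507 and 513 on lincomycin (log2 2.62 ± 0.18, adjusted p = 1.27e-06), a 6.20-fold rise. LOG1, an enzyme that frees active cytokinin, fell from 418 and 396 to 106 and 112 (log2 −1.89 ± 0.18), and LOG8 of the same family fell from 303 and 314 to 113 and 119 (log2 −1.40 ± 0.20). The response regulator ARR4, which cytokinin induces, fell from 1080.1 and 1013 to 684 and 757 (log2 −0.54 ± 0.10), and under the nuclear scaling it was not called (log2 −0.07, adjusted p = 0.567).

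Of 26 tested gibberellin genes 3 rose and 3 fell (median log2 0.01), with 10 and 2 under the nuclear scaling. GASA4, a small secreted protein induced by gibberellin, rose from 2422 and 2207 to 6463 and 6659 (log2 1.5 ± 0.09, adjusted p = 6.81e-07), whereas GASA1 of the same family fell from 2385 and 1987 to 963 and 1035 (log2 −1.12 ± 0.16). RGL1, a DELLA repressor of growth, rose from 123 and 119 to 217 and 207 (log2 0.80 ± 0.16). GASA4 and GASA1 therefore moved in opposite directions, and the groups did not overlap for them or for RGL1.

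Of 27 tested auxin genes 3 rose and 6 fell (median log2 −0.30), with 6 and 2 under the nuclear scaling, and 2 fell without MS replicate 2, lincomycin replicate 1 or lincomycin replicate 3. EIR1, the root auxin exporter PIN2, fell from 121 and 98.9 to 13.5 and 14.1 (log2 −2.90 ± 0.46, adjusted p = 7.64e-04). The exporters ABCB1 (1311 and 1430.1, then 2596 and 2709.7, log2 0.95 ± 0.09) and PIN3 (1057 and 1125, then 1811 and 1804, log2 0.73 ± 0.10) rose. Of 22 tested brassinosteroid genes 1 rose and 4 fell (median log2 −0.13), with 7 and 1 under the nuclear scaling, and 1 fell without lincomycin replicate 1. The rises numbered 2 without MS replicate 2 and 0 without lincomycin replicate 3. DWF1, an enzyme of sterol and brassinosteroid synthesis, fell from 6347 and 6067 to 2876 and 3017 (log2 −1.07 ± 0.09, adjusted p = 5.74e-06).

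Of 25 tested ethylene genes 4 rose and 4 fell (median log2 −0.03), with 9 and 2 under the nuclear scaling. Without lincomycin replicate 1 there were 1 and 2, without lincomycin replicate 3 there were 0 and 2, and the rises numbered 2 and 1 without MS replicates 2 and 3. ACS4, an enzyme that makes the ethylene precursor, fell from 50.6 and 36.4 to 3.53 and 7.38 (log2 −2.83 ± 0.46). Its relative ACS8 had 18.4 and 32 on MS and 0 and 1.23 on lincomycin. ACS4 and ACS8 passed the filter only through the MS libraries and so had to differ. Of 34 tested growth-promoting transcription factors and their targets 3 rose and 7 fell (median log2 0.05), with 13 and 3 under the nuclear scaling. The falls numbered 4 without either MS library, 3 without lincomycin replicate 1 and 2 without lincomycin replicate 3, and the rises 1 without MS replicate 3 or lincomycin replicate 3 and 5 without irx3-2 MS replicate 1. EXO, a gene of brassinosteroid-driven leaf growth, rose from 1082 and 929.7 to 2174 and 2262 (log2 1.14 ± 0.12, adjusted p = 4.22e-05). HAT2, a homeodomain factor of auxin and shade responses, fell from 398 and 397 to 195 and 219 (log2 −0.94 ± 0.14). Of the genes that fell PAR1 and PAR2 are known as brakes on elongation, so the list does not hold promoters of growth alone. Neither was called under the nuclear scaling (adjusted p = 0.119 and 0.196), without MS replicate 2 (0.0781 and 0.0873) or without lincomycin replicate 3 (0.142 and 0.111), and PAR2 was lost in 10 alternatives.

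Plastid division, envelope transport and lipid synthesis had more falls than rises under both scalings. Of 17 plastid division genes, all tested, 11 fell and 0 rose (median log2 −0.70), with 7 and 3 under the nuclear scaling. FTSZ2-2, a tubulin-like protein of the division ring, had 640.4 and 774 on MS and 224 and 231 on lincomycin (log2 −1.62 ± 0.13, adjusted p = 4.47e-06). FTSZ1-1 and FTSZ2-1, the other ring proteins, had log2 differences of −1.06 ± 0.12 and −1.04 ± 0.13, so the ring genes fell by differing amounts.

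Of 25 envelope transporters 18 fell and 1 rose (median log2 −0.61), with 11 and 3 under the nuclear scaling. DiT1, which exchanges 2-oxoglutarate and malate for nitrogen assimilation, had 2378 and 2076 on MS and 253 and 192 on lincomycin (log2 −3.33 ± 0.15, adjusted p = 6.09e-08). LrgB, the glycolate and glycerate carrier of photorespiration, had 4677 and 4151 and then 811 and 743 (log2 −2.50 ± 0.11). APE2, the triose phosphate carrier, had 13899 and 13179.7 and then 4200.3 and 3796 (log2 −1.76 ± 0.11). These are carriers that a photosynthesising plastid uses for export and exchange. ATNTT2, which brings ATP from the cytosol into the plastid, was the member that rose, from 2241 and 2179 to 3763 and 3467 (log2 0.71 ± 0.09, adjusted p = 1.61e-04), a rise called in every alternative.

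Of 33 plastid fatty acid and glycolipid genes 25 fell and 0 rose (median log2 −0.96), with 18 and 3 under the nuclear scaling. MGDC, also called MGD3, which makes galactolipid and is known from phosphate shortage, had 164 and 112 on MS and 4.71 and 12.3 on lincomycin (log2 −3.97 ± 0.54). SQD2, which makes the sulfolipid of thylakoids, had 1817 and 1512 and then 338 and 387 (log2 −2.19 ± 0.13, adjusted p = 3.55e-07). ACP4, an acyl carrier protein of leaf plastids, had 5459 and 5129.9 and then 1506 and 1436 (log2 −1.85 ± 0.11). Of 29 tested cuticle genes 8 rose and 5 fell (median log2 0.04), with 20 and 2 under the nuclear scaling, and 2 rose and 2 fell without lincomycin replicate 1. The rises and falls were 2 and 3 without lincomycin replicate 3 and 3 and 2 without MS replicate 2, and the rises 5 without MS replicate 3 or either irx3-2 lincomycin library. GPAT6, a cutin enzyme, had 73.5 and 48.0 on MS and 5.88 and 4.92 on lincomycin (log2 −3.24 ± 0.50). It passed the filter only through the MS libraries and so had to differ. In the cuticle list 16 genes were not called.

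Markers of shoot tissues were read as a check on the makeup of the seedlings. The summed level of leaf and shoot apex markers was 9892 and 8626 normalized counts on MS and 9960 and 10020 on lincomycin. The sum of MS replicate 2 holds 956.0 from WUS, a member that was not tested and was at 0 in MS replicate 3. Xylem and phloem markers summed to 7771 and 7228 and then 8057 and 8016. Stomatal markers summed to 6894 and 7043 and then 7341 and 7228. In the stomatal list 3 of 22 genes rose and 1 fell (median log2 −0.12), with 8 and 1 under the nuclear scaling, 1 rise without lincomycin replicate 3 and 3 falls without either irx3-2 MS library. STOMAGEN, a peptide made in mesophyll that promotes stomata, fell from 271 and 215 to 87.7 and 83.6 (log2 −1.49 ± 0.22, adjusted p = 5.11e-04), and AT2G26330, the ERECTA receptor, rose from 1091 and 1023 to 1783 and 1638 (log2 0.69 ± 0.10). Among leaf and shoot apex markers 4 of 18 rose and 2 fell (median log2 −0.02), with 9 and 1 under the nuclear scaling. There were 0 rises without lincomycin replicate 3, 1 rise and 1 fall without lincomycin replicate 1, and 2 rises and 1 fall without MS replicate 2. CLV1, a receptor of the shoot meristem, fell from 1085 and 1084 to 690.2 and 685 (log2 −0.66 ± 0.10), and under the nuclear scaling it was not called (log2 −0.19, adjusted p = 0.165). In xylem and phloem 3 of 19 rose and 2 fell (median log2 0.08), with 8 and 0 under the nuclear scaling. There were 0 rises and 1 fall without lincomycin replicate 1, 1 rise and 0 falls without lincomycin replicate 3, and 1 fall without either MS library.

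**Figure D5:**
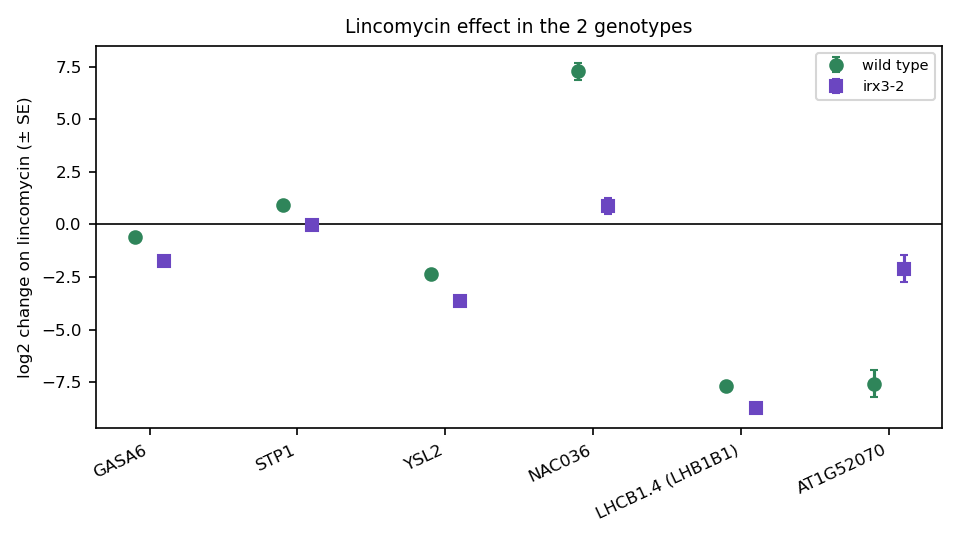
Log2 difference, lincomycin minus MS, with its standard error, in the wild type and in irx3-2 for the 6 named genes whose effect differed between the genotypes. The differences, irx3-2 minus wild type, were −1.12 for GASA6, −0.96 for STP1, −1.32 for YSL2, −6.42 for NAC036, −1.06 for LHB1B1 and 5.47 for AT1G52070. The values of NAC036 and AT1G52070 depend on the pseudocount, since 1 wild-type group of each had no read. Each of these genes passed the filter only through the other wild-type group.

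The effect of lincomycin was compared with that in irx3-2 by the interaction term of the same fit. It was called for 132 of 19444 genes, or 0.679%, and for 6 of the 198 named genes. The count was 317 and 382 without irx3-2 MS replicates 1 and 2, 25 and 23 without irx3-2 lincomycin replicates 2 and 3, 75 and 70 without wild-type MS replicates 2 and 3, and 19 and 11 without wild-type lincomycin replicates 1 and 3. It was 22 with the replicate block and 29 without a filter. Of the 17 alternatives with both genotypes, the call was kept in 17 for NAC036, 14 for GASA6, 10 for STP1 and 9 each for YSL2, LHB1B1 and AT1G52070, and of the 8 that left out 1 library in 8, 6, 3, 2, 2 and 2. STP1, a hexose importer of the plasma membrane covered to 12.2% by another gene, had 1069 and 1299 normalized counts on MS and 2218 and 2278 on lincomycin in the wild type, while in irx3-2 it had 1018 and 969.9 on MS and 934 and 1018 on lincomycin. It thus rose in the wild type (log2 0.93 ± 0.11) and had a log2 difference of −0.03 ± 0.11 in irx3-2, and the difference between them was −0.96 ± 0.16 (adjusted p = 0.0265). NAC036 was at 0 in both wild-type MS libraries and at 153 and 158 on lincomycin, and in irx3-2 at 33.0 and 35.4 on MS and at 72.4 and 55.5 on lincomycin. The wild-type MS libraries alone were at 0. NAC036 passed the filter only through the wild-type lincomycin libraries, and AT1G52070 only through the wild-type MS libraries. The wild-type levels of both genes had to differ, and their kept calls are to be read with that limit. YSL2, a carrier of metal complexes with nicotianamine, fell from 737 and 746 to 127 and 165 in the wild type and from 641.7 and 642 to 49.7 and 49.7 in irx3-2, a difference of −1.32 ± 0.23. GASA6, a gibberellin-induced peptide gene covered to 18.4% by another gene, fell from 2937 and 3081 to 1906 and 2064 in the wild type and from 3734 and 3796 to 1184 and 1099 in irx3-2. Its wild-type fall was not called under the nuclear scaling (log2 −0.14, adjusted p = 0.240).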

How the data were processed

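The submitters' processing notes name TAIR10 as the build and TopHat2 2.1.1, featureCounts, Trimmomatic, FastQC and DESeq2 as tools. Strand setting and the treatment of reads matching more than 1 locus are not stated, so reads of overlapping or near-identical genes may be split wrongly.

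The authors deposited 4 tables of 36917 loci with 8 columns of normalized counts, a signal in which each library is divided by its own size factor, identical in the 4 tables. Per the file headers the authors also gave log2 fold changes with standard errors, p-values and adjusted p-values of their own test. Every normalized count was a whole multiple of 1 number per library to within 0.01, so reads were recovered by division (100.0% of values whole, 15032240 to 19488440 reads per library). The TAIR10.1 gene table of RefSeq holds 36632 of the loci and gave symbols, positions and overlaps. Loci at 0 in every library numbered 4890.

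Log2 of the normalized count plus 1 was tested with limma 3.58.1 (R 4.3.3) with a mean-variance trend, over 4 group means of 8 libraries and 4 residual degrees of freedom, for the 19444 genes that reach 10 normalized counts in 2 or more of the 4 wild-type libraries. The threshold was an adjusted p of 0.05 (Benjamini-Hochberg). At an unadjusted p below 0.05 there were 7959 genes. After the main fit, the same fit was also run on simulated counts with known changes. The means and spreads of those counts were taken from these data, and no conclusion is drawn from that run here. The 18 alternatives were pseudocounts of 0.5 and 5, no filter, a filter over 8 libraries, the 4 wild-type libraries alone, scaling to nuclear reads, TMM scaling, a replicate block, each library left out, and edgeR 4.0.16 and DESeq2 1.42.0 on the recovered reads.

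The members and the 36 lists were chosen with earlier results of these data known. The naming rule took, per list, up to 4 called members with groups that do not overlap, by size of change, and members called against the list's main direction, where there were 1 to 3. Over all nuclear protein-coding genes it took the 10 largest rises and falls with a mean of at least 100 normalized counts, and the 5 largest changes each way in summed counts. Other members named in the text were chosen after their values were seen. Genes that passed the filter only through the lincomycin libraries, or only through the MS libraries, had to differ. Promoters were the 250 bases before the gene start of TAIR10.1, for 18603 genes, searched on both strands.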

Additional observations from a re-analysis of the deposited data

Results flagged for a closer look

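The effect of lincomycin differed between irx3-2 and the wild type, by the interaction term of limma, for 6 of the named genes, and these stood out for that reason. GASA6 fell in both genotypes and by more in irx3-2 (difference in log2 −1.12 ± 0.13, adjusted p = 0.00536), although its wild-type fall was not called under the nuclear scaling (log2 −0.14, adjusted p = 0.240). STP1 rose in the wild type and had a log2 difference of −0.03 in irx3-2 (difference −0.96 ± 0.16, adjusted p = 0.0265). YSL2 fell by more in irx3-2 (difference −1.32 ± 0.23, adjusted p = 0.0303).

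NAC036 had the largest difference by size (−6.42 ± 0.56), with 0 reads in both wild-type MS libraries, so its value depends on the pseudocount. It passed the filter only through the wild-type lincomycin libraries, so its wild-type levels had to differ. LHB1B1, a light-harvesting protein that has near-identical copies, fell by more in irx3-2 (difference −1.06 ± 0.18, adjusted p = 0.0303), from 49064 and 59910 normalized counts on MS to 113 and 142 on lincomycin, against 39469 and 37812 and then 188 and 189 in the wild type. AT1G52070, a jacalin-related lectin gene, had 190.0 and 188 on wild-type MS and 0 in both wild-type lincomycin libraries. In irx3-2 it had 11.0 and 31.9 on MS and 2.84 and 4.57 on lincomycin. Its difference of 5.47 ± 0.90 also depends on the pseudocount. This gene passed the filter only through the wild-type MS libraries, so its wild-type levels had to differ. The count of genes with such a difference moved from 11 to 382 when 1 library was left out, as given below, and in those 8 fits the call was kept in 8 for NAC036, 6 for GASA6, 3 for STP1 and 2 each for YSL2, LHB1B1 and AT1G52070. Groups held 2 libraries, so no single library could be tested as standing apart.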

How the results depend on the processing

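Of the 198 named genes 129 kept their call in all 18 alternatives, 69 lost it in at least 1 and 3 changed sign. The changes of sign came with the scaling to nuclear reads, where RPN8A had a log2 difference of 0.023, PDIL1-1 of 0.13 and SC35 of 0.10. With that scaling 10478 genes were called, 8420 higher and 2058 lower, and 2981 were at least 2-fold higher and 1352 at least 2-fold lower. Its median log2 difference was 0.49 against 0.03. Which scaling is right for these libraries was not tested.

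When 1 library was left out, 3346 to 7084 genes were called, 1000 to 3209 higher and 2317 to 3881 lower, with 536 to 1065 at least 2-fold higher and 1667 to 2186 at least 2-fold lower. Without wild-type lincomycin replicates 1 and 3 the genes called higher numbered 1000 and 1065, and those at least 2-fold higher 536 and 549. The interaction was called for 11 to 382 genes: 317 and 382 without irx3-2 MS replicates 1 and 2, 25 and 23 without irx3-2 lincomycin replicates 2 and 3, 75 and 70 without wild-type MS replicates 2 and 3, and 19 and 11 without wild-type lincomycin replicates 1 and 3. Without a filter it was called for 29 genes, and with DESeq2 for 377. In these fits the library left alone in its group was assumed to vary like the other groups. On the recovered reads edgeR called 6256 genes, with 99.2% of the limma calls among them, and DESeq2 called 5542, with 90.5%.

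Whether equal replicate numbers mark a shared batch is not in the labels, and the main fit did not pair by them. Only wild-type MS and irx3-2 lincomycin share 2 numbers, and the correlation of their deviations was −0.14 over 19444 genes. This single correlation, between groups that differ in genotype and medium, cannot exclude a shared batch. With the replicate block 4193 genes were called, 1529 of them higher, and the interaction was called for 22. Counts are limited most on MS, where 1 read is worth 1.45 to 1.53 normalized counts against 0.588 to 0.615 on lincomycin.

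The counts of 0 given for falls in the autophagy, mitochondrial RNA and nucleolar lists and for rises in the plastid division, plastid lipid and root lists were from limma and were also 0 at an unadjusted p below 0.05, with edgeR and with DESeq2. For rises in plastid RNA splicing, processing and stability, 1 gene had an unadjusted p below 0.05, and edgeR and DESeq2 called 0.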

Other observations

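Several of the largest rises belong to the DUF295 family, which was then looked at as a whole, after the values were seen. Of its 90 genes, 17 passed the filter, 9 rose and 1 fell (median log2 3.13), and 53 were at 0 in both MS libraries. Genes at 0 on MS passed the filter only where they were read on lincomycin, so these counts describe the genes that passed and not the family.

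WUS, a regulator of the shoot meristem, had 956.0 normalized counts in wild-type MS replicate 2 and 0 in replicate 3, with 3.53 and 3.69 on lincomycin, and was not among the named genes. Its level in 1 MS library stands alone in the group and is part of the sum of leaf and shoot apex markers given above.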
